A study of Homo sapiens with 3 samples.

Results

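CpG-dense windows with an intermediate methylation level were collected from the autosomes of Hep3B, a cell line of human hepatocellular carcinoma. The genome was divided into fixed windows of 1 kb, and CpGs covered by at least 10 reads in each of the 3 libraries were used. A window was kept where it held 40 or more such CpGs and where its methylation level, averaged over the CpGs and then over the libraries, was at least 20% and under 60%. There were 1330 of these windows among 10236 CpG-dense windows and among 318599 autosomal windows with at least 1 CpG compared. Of the other dense windows, 7693 lay under 20% and 1213 at 60% or more. They are called intermediate windows here. They were chosen by the methylation level averaged over the 3 libraries, so their levels are given as a description, and only differences between the libraries were tested.

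DNA methylation was measured in parental Hep3B cells (1 library) and in 2 SOX4 knockout Hep3B lines (1 library each), made with CRISPR/Cas9 and called line 1 and line 2 after the numbers in their names. SOX4 belongs to the SOX transcription factors, and the question was how its loss changed DNA methylation in these cells. All 3 libraries came from the same cell line, the labels name no drug treatment, and the SOX4 locus was not checked for its edit. The paper states that the knockout cells were kept in medium with puromycin, and it does not say this of parental cells. Whether each line grew from 1 cell is not given in the sources used here. A difference between a line and the parental cells therefore cannot be told apart from a difference between founder cells or in puromycin. No marker of the cell type was read from these data.

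CpG-dense stretches, known as CpG islands where they stand out from their surroundings, are mostly kept free of methylation in normal cells, while scattered CpGs are mostly methylated. A dense stretch can have an intermediate average in more than 1 way. Each CpG may be methylated on some of the DNA molecules, which is the known state of imprinted control regions, where the copy from one parent is methylated, and which also arises from mixed cells or from many copies of a repeat. The window may instead hold the edge of an island, with unmethylated CpGs on one side and methylated CpGs on the other. Bulk DNA gives the share of methylated reads at each CpG, so alleles, cells and repeat copies cannot be told apart in these data.

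The upstream sequences of 7 gene starts show the levels at single CpGs. They are the 250 bases before the start as listed by RefSeq (promoter table of GRCh38.p14), placed on the GRCh37 coordinates of the deposited data by the spacing of their CpGs. Each runs 5′ to 3′ on the gene's strand, and capitals mark the CpGs whose methylation level, averaged over the 3 libraries, was 20% or more. A CpG in lower case was either under 20% or not covered by at least 10 reads in each library. The genes were chosen after their values were seen, from intermediate windows that held the whole stretch. PGAP4, LINC02798 and GREM1 stand in windows whose level, averaged over the libraries, varied little from CpG to CpG (SD under 15 points). ATP5MC2 and CLUH stand in windows with a sharp edge, and of the 2 printed stretches only that of ATP5MC2 shows both sides of it. The WT1 window fell in both knockout lines and the LINC00941 window rose in both.
PGAP4, chr9:104248751-104249000, minus strand: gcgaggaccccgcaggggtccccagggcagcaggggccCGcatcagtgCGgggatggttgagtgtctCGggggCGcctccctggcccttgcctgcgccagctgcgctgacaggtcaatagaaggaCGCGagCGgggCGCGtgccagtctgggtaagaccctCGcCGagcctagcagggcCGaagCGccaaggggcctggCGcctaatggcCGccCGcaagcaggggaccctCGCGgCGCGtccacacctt
LINC02798, chr1:121138173-121138422, plus strand: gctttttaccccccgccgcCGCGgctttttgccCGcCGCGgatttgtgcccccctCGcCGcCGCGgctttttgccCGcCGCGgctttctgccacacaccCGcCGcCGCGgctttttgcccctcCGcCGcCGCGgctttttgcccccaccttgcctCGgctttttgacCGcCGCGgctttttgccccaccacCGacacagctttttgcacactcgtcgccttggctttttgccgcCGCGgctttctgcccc
GREM1, chr15:33010435-33010684, plus strand: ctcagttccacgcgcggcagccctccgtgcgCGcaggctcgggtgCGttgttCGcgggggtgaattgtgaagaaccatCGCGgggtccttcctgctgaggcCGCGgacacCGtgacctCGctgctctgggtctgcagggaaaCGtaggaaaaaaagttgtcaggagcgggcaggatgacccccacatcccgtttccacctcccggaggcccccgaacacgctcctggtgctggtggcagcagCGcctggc
ATP5MC2, chr12:54070115-54070364, minus strand: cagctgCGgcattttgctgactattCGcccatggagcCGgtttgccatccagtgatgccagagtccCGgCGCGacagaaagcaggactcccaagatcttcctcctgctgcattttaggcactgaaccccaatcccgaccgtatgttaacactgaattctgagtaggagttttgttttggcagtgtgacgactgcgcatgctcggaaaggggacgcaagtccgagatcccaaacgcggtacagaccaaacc
CLUH, chr17:2615315-2615564, minus strand: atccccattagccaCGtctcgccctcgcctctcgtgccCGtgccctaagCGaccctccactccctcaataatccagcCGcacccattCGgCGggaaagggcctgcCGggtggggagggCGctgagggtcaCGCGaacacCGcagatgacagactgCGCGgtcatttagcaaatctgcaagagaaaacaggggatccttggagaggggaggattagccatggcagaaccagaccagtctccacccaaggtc
WT1, chr11:32452360-32452609, minus strand: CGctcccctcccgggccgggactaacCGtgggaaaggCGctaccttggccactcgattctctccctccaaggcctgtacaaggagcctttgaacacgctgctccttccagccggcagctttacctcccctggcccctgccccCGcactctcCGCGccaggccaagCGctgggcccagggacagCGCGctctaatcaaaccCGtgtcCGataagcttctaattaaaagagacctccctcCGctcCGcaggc
LINC00941, chr12:30948365-30948614, plus strand: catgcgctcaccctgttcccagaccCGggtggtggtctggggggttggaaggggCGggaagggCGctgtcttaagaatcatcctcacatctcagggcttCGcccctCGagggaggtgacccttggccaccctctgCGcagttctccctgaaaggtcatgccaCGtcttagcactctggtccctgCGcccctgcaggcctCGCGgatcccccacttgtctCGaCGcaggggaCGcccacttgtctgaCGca

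PGAP4 encodes a Golgi enzyme that adds a sugar to GPI anchors. Of its 24 upstream CpGs, 22 were covered and 20 reached 20%, and they lay between 17.1% and 25.9% in parental cells. Their mean was 20.7% in parental cells, 26.7% in line 1 and 32.7% in line 2, so line 2 was the highest here. LINC02798, a long non-coding RNA gene, had 27 of 30 covered CpGs at 20% or more, with means of 32.7%, 23.7% and 33.4% in the same order of libraries. GREM1 encodes a secreted antagonist of bone morphogenetic proteins. All of its 23 upstream CpGs were covered and 11 reached 20%, with levels from 4.76% to 54.5% in parental cells. Their mean was 30.8% in parental cells against 13.9% in line 1 and 16.0% in line 2.

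ATP5MC2 encodes the ring subunit of mitochondrial ATP synthase. The capitals in its sequence end where the step lies: 6 of its 15 CpGs, at the end farthest from the start, were at 20% or more and the others were under it, with a range from 0% to 100% in each library. CLUH encodes an RNA-binding protein of mRNAs for mitochondrial proteins. Of its 16 upstream CpGs 13 were covered, and those in lower case were not measured. All 13 were methylated, with means of 94.4% in parental cells, 95.003% in line 1 and 96.7% in line 2. WT1 encodes a zinc finger transcription factor of kidney and gonad development. Its 18 upstream CpGs had a mean of 52.3% in parental cells, 26.8% in line 1 and 37.4% in line 2. LINC00941 is a long non-coding RNA gene whose 14 covered CpGs went the other way, with means of 68.2%, 89.2% and 78.6%.

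Most intermediate windows were not evenly methylated. The SD of the level over the CpGs of a window, after averaging the libraries, ranged from 4.002 to 48.6 percentage points with a median of 27.5. It was under 15 points in 70 windows, which are called uniform, 25 points or more in 833 windows, which are called the boundary class, and between these limits in 427 windows. Removing the variance that read sampling alone adds left the median at 27.3 points. The 70310 CpGs of the intermediate windows showed the same contrast. In uniform windows 80.8% of the CpGs lay from 20% to under 80%, 18.8% lay under 20% and 0.484% at 80% or more. In the boundary class 37.8% of the CpGs were intermediate themselves, 41.9% lay under 20% and 20.3% at 80% or more.

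**Figure D1:**
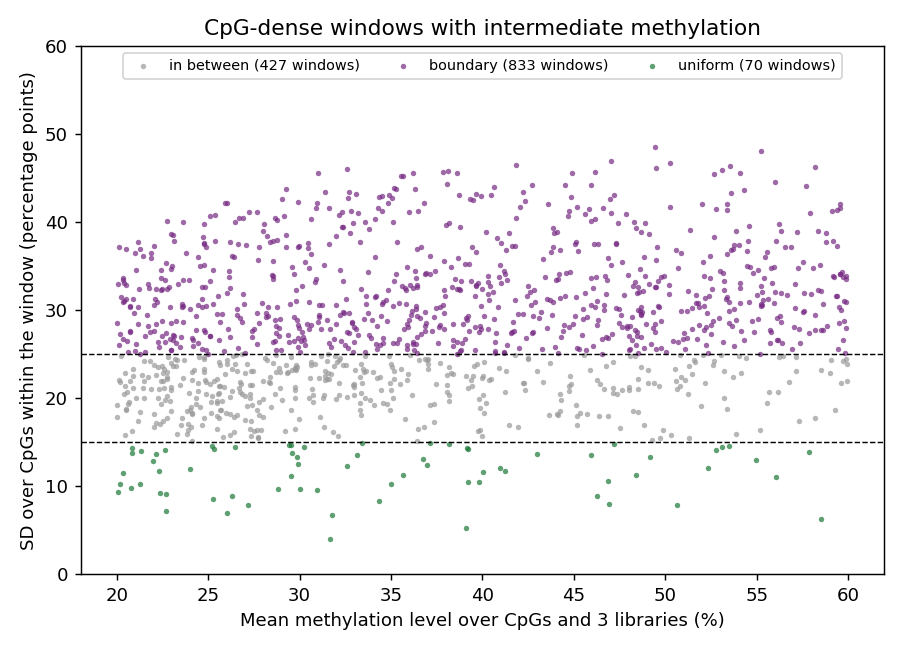
Each point is 1 of the 1330 intermediate windows, placed by its mean methylation level in percent (x axis) and the SD over its CpGs in percentage points (y axis). The dashed lines mark SDs of 15 and 25 points, and the 70 uniform windows lie under the lower line at levels from 20% to 60%.

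The boundary class held in the single libraries, and the uniform class did so less often. Of the 833 windows of the boundary class, 793 (95.2%) had an SD of at least 25 points in each library alone. Of the 70 uniform windows, 29 had an SD under 15 points in each library alone, 66 had one under 20 points in each, and 0 reached 25 points in any library. Read sampling enters the SD within a single library more than the SD of the average. The mean level of the windows stayed from 20% to under 60% in each of the libraries in 1062 windows (79.8%).

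Windows near the limits show what the limits separate. At the lower limit of level, chr20:61051001-61052000 had 19.9% and was left out, and chr18:49868001-49869000 had 20.01% and was kept. At the upper limit, chr1:149146001-149147000 was kept at 59.9% and chr2:176964001-176965000 was left out at 60.03%. The SD was 14.9 points in chr17:43663001-43664000 and 15.1 points in chr9:66458001-66459000, on either side of the uniform limit. It was 24.99 points in chr1:12123001-12124000 and 25.002 points in chr7:27225001-27226000, on either side of the boundary limit. At intermediate level, 91 windows held 39 CpGs and 94 held 40.

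Depth in the intermediate windows was close to that of the other dense windows. CpG reads numbered 104702738 in parental cells, 96987706 in line 1 and 133170621 in line 2. The median CpG of an intermediate window had 34 reads in parental cells, 33 in line 1 and 44 in line 2. With 17 of 34 reads methylated, the Wilson 95% interval of 1 CpG runs from 34.1% to 65.9%, and the counting error of a window mean had a median of 0.900 points in parental cells, 0.846 in line 1 and 0.782 in line 2. Intervals cover counting error only, because PCR copies and neighbouring CpGs on 1 read are not independent.

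Some intermediate windows had a very high depth, and their share was highest in the uniform class. In 67 intermediate windows the depth was over 5 times the median of the library, averaged over the libraries, and these were 13 of the 70 uniform windows (18.6%), 38 of the 427 between the limits (8.90%) and 16 of the 833 of the boundary class (1.92%). Over all dense windows the share was 1.66%. The deepest was chr3:75718001-75719000 at 279 times the median, with levels of 44.0% in parental cells, 33.1% in line 1 and 37.4% in line 2. Another 4 of the 67 lay between positions 228743001 and 228772000 of chromosome 1, and in chr1:228771001-228772000 the mean depth per CpG was 3940, 4621 and 5713 reads in parental cells, line 1 and line 2. Its levels were 52.9%, 54.5% and 53.1%. Reads of near-identical copies cannot be told apart in such counts, and whether these windows hold repeated sequence was not tested. Without the 67 windows there were 57 uniform windows and 817 of the boundary class.

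The 6 uniform windows with the smallest SD over CpGs were spread over 5 chromosomes. The most even was chr6:10410001-10411000 with an SD of 4.002 points, where the 42 CpGs ran from 15.8% to 50% in parental cells. Its level was 33.9% in parental cells, 36.8% in line 1 and 24.4% in line 2, so the lines lay on either side of the parental cells. In chr7:45026001-45027000 the levels were 41.9%, 35.7% and 39.7% in parental cells, line 1 and line 2. The window chr6:26250001-26251000 was the highest of the 6, with 60.8% in parental cells, 58.2% in line 1 and 56.5% in line 2.

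The other 3 lay lower. In chr9:104248001-104249000, the PGAP4 window, the level was 30.7% in parental cells, 28.0% in line 1 and 36.7% in line 2. The 76 CpGs of chr11:2721001-2722000 had levels of 28.5%, 22.005% and 27.6% in the same order. In chr19:36748001-36749000 the level was 33.3% in parental cells and lower in both lines, with 20.2% and 14.6%, a knockout mean of 17.4% ± 3.97 (SD, n = 2). Of the CpGs in these 6 windows, 4 were called different between line 1 and parental cells and 1 between line 2 and parental cells, by a 2-sided Fisher exact test with Benjamini-Hochberg adjustment over all autosomal CpGs and a difference of 25 points. All of the called CpGs were lower in the knockout line, and none of the 6 windows had a called CpG between the lines.

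**Figure D2:**
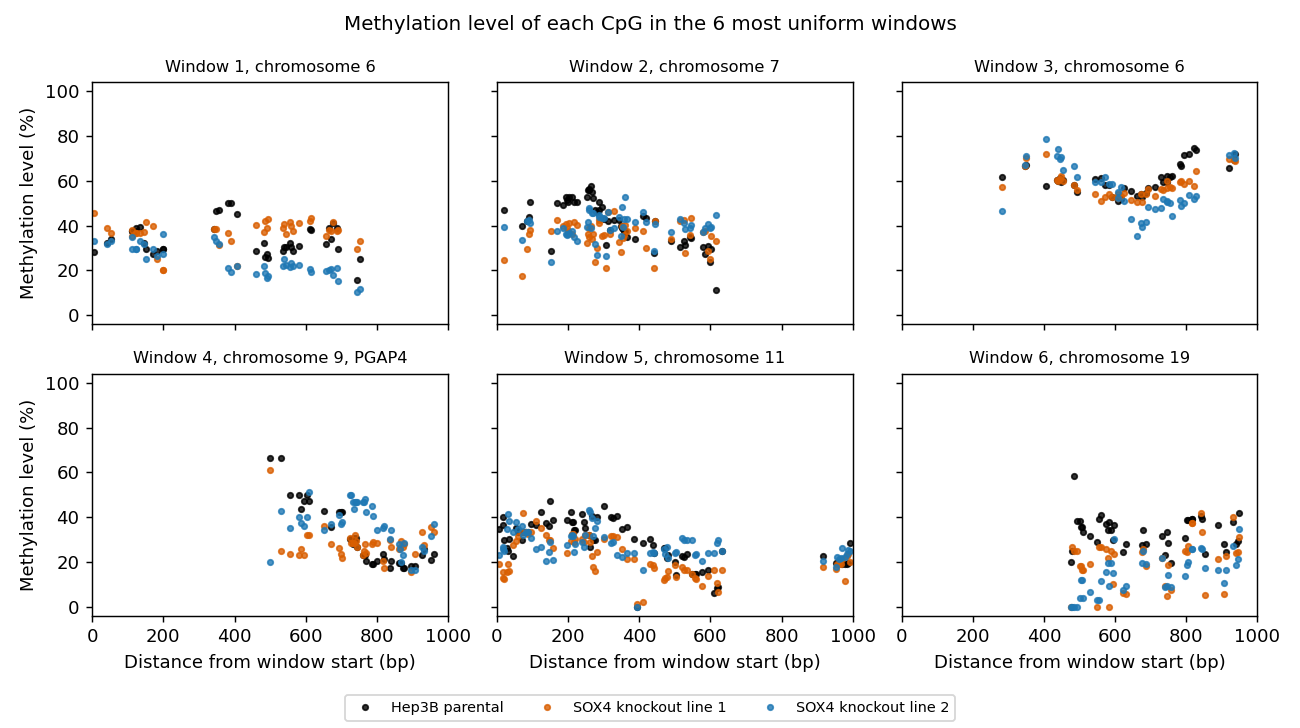
Methylation level in percent (y axis) of every compared CpG against its distance in bp from the window start (x axis) in the 6 uniform windows with the smallest SD, in the order of the text. Colours are the 3 libraries: the CpGs of a window stay in 1 band, for example from 15.8% to 50% in parental cells in window 1, with no side that is fully methylated or unmethylated.

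Evenly methylated does not mean 50% methylated. Of the 70 uniform windows, 20 had a mean level from 40% to under 60% and 50 lay lower. In 10 of them the level was from 40% to under 60% in each of the libraries, and in 48 it stayed from 20% to under 60% in each. The CpG-to-CpG pattern within a uniform window was shared by the libraries to some degree, with a median Pearson r over the CpGs of a window of 0.620 between parental cells and line 1, 0.708 between parental cells and line 2, and 0.711 between the lines. In the boundary class these medians were 0.879, 0.933 and 0.933. CpGs of 1 window share reads and are not independent, so no test was made of these correlations.

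The strands gave similar levels where both were read. Between 86.7% and 87.0% of the CpG reads lay on the complementary strand, and 497 intermediate windows had at least 5 CpGs with 10 or more reads on each strand, summed over the libraries. In these windows the mean was 39.9% on the forward strand and 39.97% on the complementary strand, and the absolute difference had a median of 2.73 points. In the 33 uniform windows among them the median difference was 5.71 points, and it was under 10 points in 24.

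The uniform windows whose level varied least between the libraries included deep ones. In chr1:152083001-152084000, with 86 CpGs, the level was 20.4% in parental cells, 20.9% in line 1 and 21.1% in line 2. The window of MIR663AHG, the host gene of a microRNA, had levels of 29.0%, 29.2% and 29.98% at 10.05 times the median depth. In chr1:148854001-148855000, at 7.40 times the median depth, they were 30.1%, 29.5% and 29.0%. The fourth was chr1:228771001-228772000, described above for its depth. These 4 have the smallest range of the uniform class by choice, and the median range over the 3 libraries was 8.54 points in uniform windows and 6.99 points in the boundary class.

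In the boundary class, 310 of 833 windows (37.2%) were described mostly by a single step, meaning that dividing the ordered CpGs at 1 place, with at least 5 CpGs on each side, took up 70% or more of their variance. On average the low side of these steps was at 10.03% in parental cells, 7.21% in line 1 and 8.54% in line 2. The high side was at 84.0%, 79.5% and 82.2% in the same order. Dense windows under 20% and at 60% or more averaged 3.05% and 86.5% in parental cells. The step rose toward higher coordinates in 160 of the 310 windows.

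The 6 windows with the cleanest steps changed from a mostly unmethylated side to a mostly methylated side at 1 place. The first, chr3:148804001-148805000, holds the start of HLTF, which encodes a DNA translocase of stalled replication forks. Its low side was at 0.586% in parental cells, 0% in line 1 and 0.606% in line 2, and its high side at 97.6%, 96.2% and 97.1%. In the ATP5MC2 window, chr12:54070001-54071000, the low side was at 0.484%, 0.547% and 0.239% and the high side at 97.3%, 95.2% and 96.6%. The window of MARS1, which encodes methionyl-tRNA synthetase, is chr12:57881001-57882000, with 1.13%, 2.36% and 1.71% on the low side and 94.3%, 94.5% and 96.0% on the high side. The remaining 3, chr7:915001-916000, chr6:5086001-5087000 and chr19:1325001-1326000, had no placed gene start, and their high sides averaged 97.0%, 95.5% and 91.3% over the libraries.

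In these 6 windows the step fell between the same CpGs in every library, but the CpGs on either side of it were far apart. The stretch without a compared CpG was 63 bp in the ATP5MC2 window and from 266 to 505 bp in the other 5. Where within that stretch the level changes cannot be read from these data. Of the CpGs in these windows, 1 was called lower in line 1 than in parental cells, in chr19:1325001-1326000 (adjusted p = 0.000465, Fisher exact test with Benjamini-Hochberg adjustment), and 0 were called in line 2 or between the lines. With both lines counted together, 8 tests against parental cells in these windows had an unadjusted p under 0.05.

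**Figure D3:**
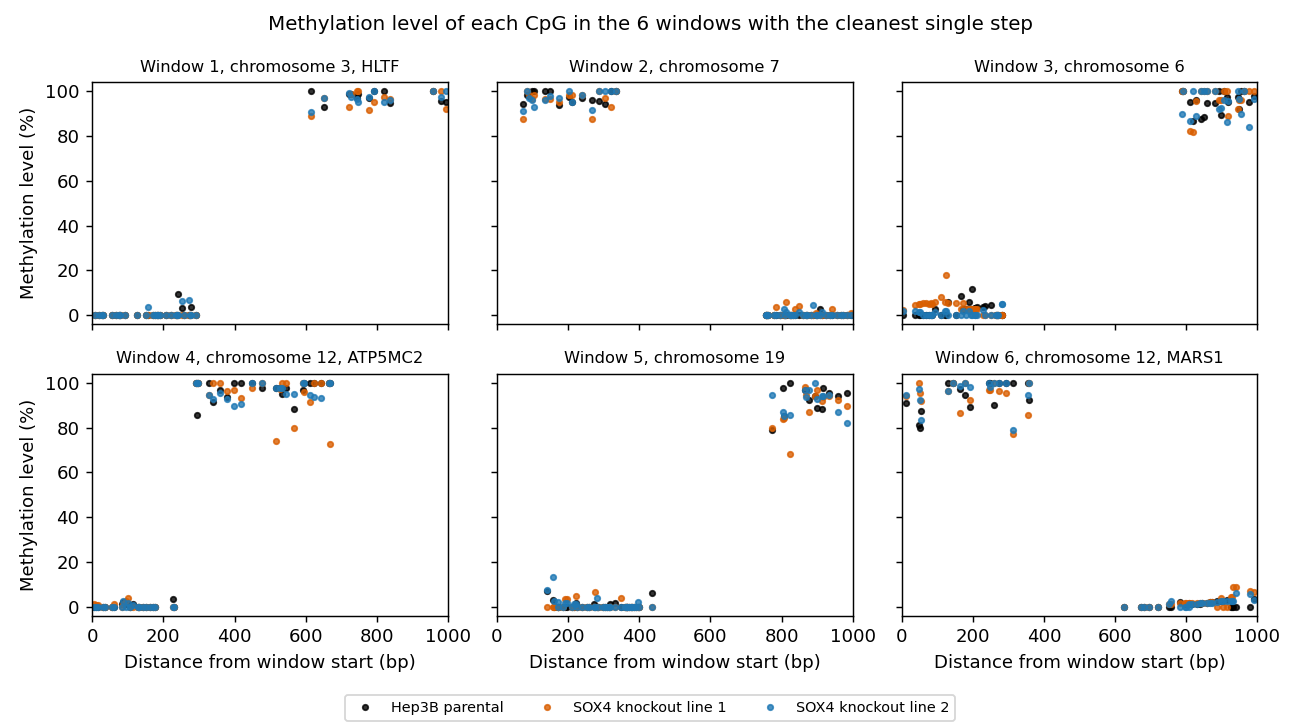
Methylation level in percent (y axis) of every compared CpG against its distance in bp from the window start (x axis) in the 6 boundary-class windows with the largest share of variance at 1 step. Colours are the 3 libraries: most levels sit near 0% on one side and near 100% on the other in each, and the change lies in a stretch without points of 63 to 505 bp.

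Step positions were shared by the libraries over most of the 310 single-step windows. The step had the same direction in each library in 310 windows and fell between the same 2 CpGs in each in 137 (44.2%). The distance between the lowest and highest step position of the 3 libraries had a median of 16.2 bp. It was at most 50 bp in 220 windows (71.0%) and over 200 bp in 12, up to 369.5 bp. The stretch without a compared CpG at the step had a median of 28.0 bp, and it was 100 bp or more in 60 windows. The step stood between the same CpGs in 39 of these 60 (65.0%) and in 98 of the other 250 (39.2%), so part of the shared position goes with gaps in the measurement.

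Where the step differed between libraries, it lay more often toward the methylated side in the library with the lower mean level. In line 1 it lay nearer to the methylated side than in parental cells in 112 windows, nearer to the unmethylated side in 39 and at the same place in 159, with a mean shift of 20.5 bp (SD over windows 71.2). In line 2 the counts were 86, 39 and 185, with a mean shift of 10.4 bp (SD 50.4). Between the lines, it lay nearer to the methylated side in line 1 than in line 2 in 81 windows and nearer to the unmethylated side in 40, with a mean shift of 10.1 bp (SD 60.9), about as large as that between line 2 and parental cells. Each line is 1 library, so no p is given. Both sides also lost methylation: the high side was lower than in parental cells in 227 of the 310 windows in line 1 and in 199 in line 2, with mean differences of -4.43 and -1.81 points. The low side was lower in 228 and 206 windows, with mean differences of -2.83 and -1.49 points.

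Steps followed the levels of the neighbouring windows. Of the boundary class, 295 windows had an adjacent window with at least 5 CpGs on both sides, and in 223 of them (75.6%) the step rose toward the neighbour with the higher level. Where the neighbours differed by 40 points or more, this held in 103 of 108. Uniform windows had both neighbours in 23 cases, and their small best step rose toward the higher neighbour in 12. In 74 of the 295 windows of the boundary class (25.1%) one neighbour lay under 20% and the other at 60% or more, against 2 of the 23 uniform windows.

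The rest of the boundary class was not described by 1 step. With 2 breaks in place of 1, another 72 windows reached 70% of the variance. The middle was lower than both ends in 14 of these (median 8.53%) and higher than both in 25 (median 86.5%). The other 33 went up or down in 2 stages. The clearest named example of an unmethylated middle was the window of STAT5A, a transcription factor of cytokine signalling, at chr17:40440001-40441000, with segment means of 80.9%, 2.02% and 79.6%. The clearest named methylated middle was in the window of PDE1C, a calmodulin-dependent phosphodiesterase, at chr7:32467001-32468000, with 13.0%, 97.0% and 16.4%. Over the window, PDE1C had 36.9% in parental cells, 31.2% in line 1 and 31.9% in line 2, and STAT5A had 25.4%, 23.8% and 22.2%.

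Another 451 windows (54.1%) fitted neither shape. Their median SD over CpGs was 29.2 points, against 37.2 points in single-step windows and 31.1 points in those with 2 breaks. Of their CpGs, 48.9% lay from 20% to under 80%. The pattern was not disordered between the libraries: the median r over the CpGs of a window was 0.837 between parental cells and line 1, 0.904 between parental cells and line 2 and 0.909 between the lines. In chr22:50025001-50026000 the r was 0.978, 0.993 and 0.987, the SD was 40.7 points, and a single step took up 22.8% of the variance. Its 60 CpGs included 29 under 20%, 9 from 20% to under 80% and 22 at 80% or more, in an arrangement that each library repeated. This window was picked for its high correlation after the values were seen.

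Gene starts were less frequent in intermediate windows than in unmethylated dense windows. A RefSeq start could be placed in 308 of the 1330 intermediate windows (23.2%), against 55.2% of the dense windows under 20% and 9.81% of those at 60% or more. The share was 27.1% in the uniform class and 25.6% in the boundary class. The upstream and start sequences of the intermediate windows had a median GC content of 65.3% and a median observed-to-expected CpG ratio of 0.812, against 66.3% and 0.881 in the unmethylated dense windows. In single-step windows 120 starts were placed, and 95 of them (79.2%) lay on the unmethylated side. The step was upstream of 60 of these starts, at a median distance of 280.2 bp, and downstream of 35, at a median of 292 bp.

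Genes of embryonic development, mostly transcription factors, made up 21 of the 337 genes with a start in an intermediate window. Of a list of such genes, 48 had a start in a dense window and 21 of those (43.8%) had one in an intermediate window, against 337 of all 5627 genes with a start in a dense window (5.99%). In dense windows at 60% or more the counts were 6 of the 48 and 134 of the 5627. The list was made with earlier results of these data known, so the count is a description and was not tested. HOXA4, which patterns the body axis, stood in a uniform window, chr7:27170001-27171000, with 47.1% in parental cells, 49.3% in line 1 and 48.7% in line 2. ZIC5, a neural zinc finger factor, was the other uniform one, with 29.8%, 32.1% and 26.6%. Of the 21 genes, 13 had a start in a window of the boundary class.

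The windows of 17 of the 21 genes (81.0%) had lower levels in both knockout lines, beside 77.5% of all intermediate windows, and the median difference was -5.86 points in line 1 and -3.13 points in line 2, beside -6.45 and -3.61 points over all. The window of SIX6, an eye development factor, had 40.6% in parental cells, 23.1% in line 1 and 25.6% in line 2. MSX2, a factor of limb and skull development, had 53.2%, 41.2% and 40.9%. PAX6, a factor of eye, brain and pancreas development, was higher in both lines, with 30.8% in parental cells, 44.6% in line 1 and 39.8% in line 2. HOXA10 differed little, with 24.9%, 23.4% and 24.6%, and so did PITX3, with 54.4%, 53.9% and 54.0%.

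Few imprinted genes had a start in a dense window. Of an imprinted list 29 genes were placed, and 14 of them had a start in a dense window. Of these 14, 4 (28.6%) had one in an intermediate window, beside 5.99% of all genes. FAM50B, which is expressed from the paternal copy in many tissues, stood in a window with an SD of 16.9 points and levels of 39.9% in parental cells, 45.6% in line 1 and 38.9% in line 2. PLAGL1, a zinc finger gene of growth control, and the non-coding HYMAI share the window chr6:144329001-144330000, which had 22.3%, 21.5% and 22.7% and an SD of 32.4 points. The fourth was WT1, whose 2 windows are described with the changes below. None of these was uniform by the limit of 15 points. Imprinted regions without a placed gene start were not searched for, so whether other uniform windows lie in such regions was not tested.

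The other lists had few genes in intermediate windows. Of 201 genes named ZNF with a start in a dense window, 12 (5.97%) had one in an intermediate window, beside 5.99% of all genes. Levels were lower in both lines for 11 of the 12, beside 77.5% of all intermediate windows, and ZNF606 and ZNF606-AS1 share 1 window. Of the clustered protocadherins 0 of 1 had a start in an intermediate window, and no gene of a liver list had one in a dense window. ZNF595, the uniform one of the ZNF genes, had 41.6% in parental cells, 37.1% in line 1 and 38.9% in line 2, at 5.37 times the median depth. Among the other uniform windows with a start was that of HEIH, a long non-coding RNA of liver cancer, with 41.5%, 40.4% and 37.5%.

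Intermediate windows occurred on every autosome. Their share of the dense windows was smallest on chromosome 22 (7.57%) and largest on chromosome 20 (19.9%). Most had no intermediate neighbour: 1147 stood alone, and the rest formed 78 pairs and 9 runs of 3. Named runs of 3 lay at IRX4, a homeobox gene, with a mean level of 45.05% in parental cells, 36.4% in line 1 and 41.8% in line 2, and at IRF4, a transcription factor of lymphocytes, with 53.8%, 37.7% and 43.5%.

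The intermediate windows were less methylated in both knockout lines than in the parental cells. Their mean level was 41.0% in parental cells, 34.1% in line 1 and 37.2% in line 2, a knockout mean of 35.7% ± 2.18 (SD, n = 2), a difference of -5.33 points from parental cells. The difference was -6.87 points in line 1 (SD over windows 6.75) and -3.79 points in line 2 (SD 4.70), and the lines differed from each other by -3.08 points, so the gap between the lines was about as large as the difference of line 2 from parental cells. With 1 parental library against 2 lines an exact permutation test cannot give a p below 0.333, and none is reported. The level fell in both lines in 1031 windows (77.5%), rose in both in 122 and went opposite ways in 177. In 885 windows (66.5%) the order was parental, then line 2, then line 1.

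Lower levels in the knockout lines were also measured outside these windows. Over all 111495 windows with at least 5 CpGs, the mean difference from parental cells was -4.71 points in line 1 and -2.46 points in line 2. It was -10.5 and -5.49 points in windows of fewer than 40 CpGs with an intermediate level, -4.61 and -2.64 points in dense windows at 60% or more, and -0.480 and -0.331 points in dense windows under 20%. Within the intermediate windows it was -5.37 and -2.31 points in the uniform class, -6.74 and -3.65 points in the boundary class and -7.38 and -4.30 points in those between. It was -3.37 and -1.57 points in single-step windows and -9.11 and -5.17 points in windows of neither shape. These differences between classes were not tested.

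**Figure D4:**
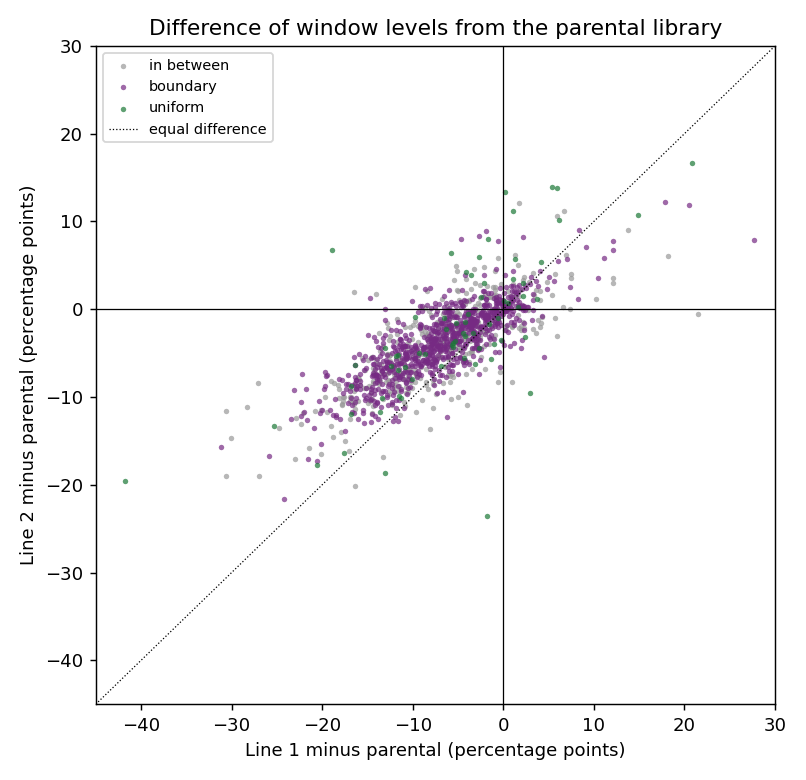
Each point is 1 intermediate window, placed by the difference of line 1 (x axis) and of line 2 (y axis) from parental cells, both in percentage points, and coloured by class. Most points lie in the lower left part, where 1031 of 1330 windows are, and above the dotted line of equal difference, since line 1 lost more than line 2.

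Large differences of whole windows were rare. At 25 points, 0 of the 1330 windows were higher in both lines and 0 lower in both, beside 0.0682% and 0.554% of all windows with at least 5 CpGs. In line 1 against parental cells 1 window was higher and 10 were lower, beside 0.42% and 4.16% of all windows. In line 2 against parental cells 0 were higher and 0 lower, beside 0.0906% and 0.63%. In line 1 against line 2, 0 were higher and 1 lower, beside 0.117% and 0.778%. Windows with 5 CpGs have a larger counting error than windows with 40 or more, so the shares over all windows are not those of equally precise means.

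At 10 points, 4 intermediate windows were higher in both lines and 110 (8.27%) lower in both, beside 0.878% and 9.08% of all windows. The share lower in both lines was therefore near that of all windows. As a yardstick, line 1 lay 10 points above both of the other libraries in 3 windows and below both in 48, beside 0.981% and 8.6% of all windows. Line 2 lay above both in 3 and below both in 1, beside 0.33% and 0.396%. The parental library was thus the odd one in more intermediate windows than either line.

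Single CpGs showed the same direction. In line 1 against parental cells 5240 of the 70310 CpGs in intermediate windows (7.45%) were called lower and 944 (1.34%) higher by the Fisher exact test, beside 4.48% and 0.601% of all 2204675 autosomal CpGs. The lower ones lay in 1081 of the 1330 windows. Of the dense windows above the intermediate range, 630 of 1213 held a CpG called lower in line 1, and of those below it 1005 of 7693. A window counts here with 1 called CpG, so these counts do not show how evenly the lower CpGs were spread. In line 2 against parental cells 925 CpGs of the intermediate windows (1.32%) were called lower and 145 (0.206%) higher, beside 0.718% and 0.0838% of all autosomal CpGs. In line 1 against line 2, 991 (1.41%) were called lower and 301 (0.428%) higher, beside 1.07% and 0.183%. A CpG near 0% or 100% in 1 library can differ by 25 points in 1 direction only. How the level bears on these shares was not tested. In the uniform class 124 of 3722 CpGs (3.33%) were called lower in line 1, under the share of all autosomal CpGs. The 22 called higher in line 1 (0.591%) were near that of all autosomal CpGs. In line 2, 30 CpGs of the uniform class (0.806%) were called lower and 11 (0.296%) higher, both above the shares of all autosomal CpGs.

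The windows with the largest rise in both lines, ranked by the smaller of the differences, were led by chr20:62328001-62329000. Its level was 33.4% in parental cells, 54.2% in line 1 and 50.1% in line 2, a knockout mean of 52.2% ± 2.90 (SD, n = 2), and 15 of its 50 CpGs were called higher in line 1 and 5 in line 2. The LINC00941 window followed, with 35.2%, 53.0% and 47.4%, and 5 CpGs called higher in line 1 and 2 in line 2. In chr15:90357001-90358000 the levels were 12.2%, 32.7% and 24.01%. Both lines lay above parental cells in each, and line 1 was the higher of the lines.

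The high side of the step in chr15:90357001-90358000 rose from 34.0% in parental cells to 78.3% in line 1 and 57.8% in line 2, and 17 of its 57 CpGs were called higher in line 1 and 2 in line 2. In chr10:124909001-124910000, a uniform window, the levels were 25.8%, 40.7% and 36.6% with 0 CpGs called, although 8 CpGs in line 1 and 20 in line 2 had an unadjusted p under 0.05. The fifth was the PAX6 window, chr11:31826001-31827000, with 5 CpGs called higher in line 1 and 0 in line 2. Its depth was low, with a mean of 17.2 reads per CpG in parental cells.

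The largest fall in both lines was in chr16:4165001-4166000. Its level was 42.1% in parental cells, 17.9% in line 1 and 20.5% in line 2, a knockout mean of 19.2% ± 1.85 (SD, n = 2), and 12 of its 45 CpGs were called lower in line 1 and 7 in line 2. The loss was on the methylated side of its step, which had 84.7% in parental cells, 37.4% in line 1 and 43.2% in line 2. The low side went from 4.91% to 0.877% and 0.668%. Depth here was 14.8, 18.0 and 23.3 reads per CpG, under the median of the intermediate windows.

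In chr4:48492001-48493000 the libraries were spread widest. Its level was 56.1% in parental cells, 14.4% in line 1 and 36.5% in line 2, so the SD of the knockout lines was 15.7 points around a mean of 25.4%. Of its 49 CpGs, 25 were called lower in line 1, 2 in line 2 and 5 in line 1 against line 2. It is a uniform window by its average, and the loss was spread over its CpGs. In chr1:243053001-243054000 the levels were 52.3%, 25.3% and 33.3%, with 18 of 44 CpGs called lower in line 1 and 3 in line 2.

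The other falls lay at gene starts. LVRN encodes laeverin, an aminopeptidase known from the placenta, and its window chr5:115298001-115299000 had 42.4% in parental cells, 11.8% in line 1 and 23.5% in line 2, with 22 of 47 CpGs called lower in line 1 and 0 in line 2. EDNRA encodes the endothelin A receptor of vascular muscle. Its window chr4:148402001-148403000 had 38.1%, 17.5% and 20.4%, a knockout mean of 18.95% ± 1.98 (SD, n = 2), with 10 of 45 CpGs called lower in line 1 and 3 in line 2. The WT1 window chr11:32452001-32453000 had 56.7%, 35.2% and 39.6%, and a second one, chr11:32455001-32456000, had 64.8%, 57.1% and 56.8%. The GREM1 window had 32.1% in parental cells, 14.5% in line 1 and 15.7% in line 2. In all of these both lines lay under parental cells.

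**Figure D5:**
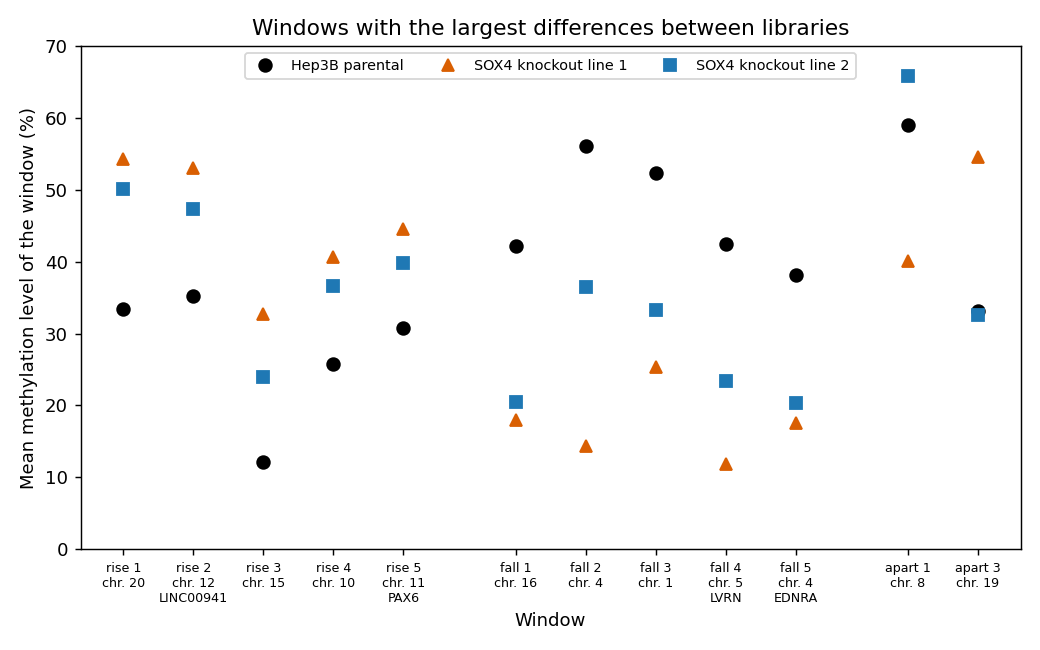
Mean methylation level in percent (y axis) of 12 windows in each library, grouped as the 5 largest rises, the 5 largest falls and 2 of the 3 windows in which the lines differed most (x axis; the remaining one of these is fall 2). In the rises both knockout lines lie above parental cells, and in the falls both lie below it, with line 1 the lowest in each.

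Line 1 and line 2 differed most in 3 windows. In chr8:145806001-145807000 the level was 40.1% in line 1 and 65.8% in line 2, with 59.0% in parental cells. In chr19:1762001-1763000 line 1 had 54.6%, while line 2 had 32.6% and parental cells 33.1%, and 14 of its 40 CpGs were called higher in line 1 than in parental cells. The third was chr4:48492001-48493000. Differences between the lines of 22.01 to 25.69 points in size therefore occurred in intermediate windows.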

How the data were processed

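Genomic DNA (500 ng per library, per the labels) was sheared to 150 to 200 bp, enriched with the EPIC CpG probes, bisulfite converted and sequenced. The deposited files give, for each cytosine of a CpG, read counts (total, in CpG context and methylated) without normalization, and a methylation level as a fraction that the authors computed as methylated over context reads. The submitters' processing notes name GRCh37/hg19. The aligner, the caller and the removal of PCR duplicates are not given in the sources used here.

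The counts of both strands were summed per CpG, and CpGs with 10 or more reads in each library were compared (median 31, 29 and 39 reads in the parental library, line 1 and line 2). Fixed 1 kb windows were averaged over CpGs. Differences were called per CpG at an adjusted p under 0.05 and 25 points (2-sided Fisher exact test, Benjamini-Hochberg over 2204675 CpGs) and per window at 25 or 10 points without a p, in windows of 5 or more CpGs. These tests compare libraries, not conditions. The members, the gene lists and the limits were chosen with earlier results of these data known. Windows named in the text were the 6 uniform ones of smallest SD, the 6 with the largest share of variance at 1 step, the 5 largest rises and falls by the smaller difference, the 4 uniform ones of smallest range, the 3 with the largest difference between lines and the nearest on each side of every limit. Others, and all sequences, were picked after their values were seen.

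An annotation of GRCh37 was not used here. RefSeq promoters (250 bases before to 50 after a start) were placed on the deposited positions where at least 8 CpGs and 50% of their CpGs matched by spacing at a single place, with at most 10% extra. Of 35116 promoters, 21319 had 8 CpGs, 15276 were placed and 15251 (99.8%) lay on the chromosome that RefSeq names; only these were used. Counts over gene lists were planned for an annotation of GRCh37 and rest on these promoters instead, so genes without a placed promoter are not counted. Scripts were tested on simulated data. Python 3.11.15 was used with numba 0.67.0, scipy 1.17.1, pandas 2.3.3, numpy 2.4.6 and matplotlib 3.10.9. Alternatives are given in the closing section.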

Additional observations from a re-analysis of the deposited data

How the results depend on the processing

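No paired analysis was possible because only 1 library of parental cells was made and its label carries no number to pair by. With the mean level of the intermediate windows, the knockout mean lay under parental cells in every alternative run, with a difference of -5.33 points (-5.28 to -5.50 with other coverage limits, read weighting, shifted windows or deep windows left out, and -3.79 and -6.87 with a single line).

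The number of windows follows the limits by construction. A coverage minimum of 20 reads left 581 windows, 312 of them in the boundary class, and a minimum of 5 gave 1299 in the boundary class and 4 windows lower in both lines at 25 points. With at least 30 CpGs there were 2502 windows (127 uniform, 1586 boundary), and with at least 50 CpGs 659 (33 and 413). An SD limit of 10 gave 20 uniform windows and one of 20 gave 210. A limit of 30 gave 503 boundary windows, and a step share of 90% left 13.9% of that class with a single step. A limit of 10 points gave 4 windows above parental cells in both lines and 110 below. With 1 line left out, the counts higher and lower at 25 points were 0 to 1 and 0 to 10, the larger ones without line 2.

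CpGs called lower or higher in line 1, line 2 and line 1 against line 2 changed most with the limits. At 10 points, 1510 were lower in line 2 and 1618 lower in line 1 than line 2. At 50 points the lower and higher counts were 1353 and 251 for line 1, 148 and 24 for line 2, and 131 and 54 between the lines. At an adjusted p under 0.01 there were 532 higher in line 1, 449 lower and 53 higher in line 2, and 527 and 139 between the lines. Thinned to the smallest depth of the 3 libraries, they were 444 and 46 for line 2 and 548 and 140 between the lines. Line 2 is the deepest library. In each alternative run more CpGs were called lower than higher. Leaving out deep windows, requiring 80% of promoter CpGs to match, and step shares other than 70% were chosen after seeing the data. With the stricter match, 18 of 39 developmental genes and 287 of 5004 genes had a start in an intermediate window.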
